A study of Rattus norvegicus with 6 samples.

Results

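Genes of 7 families of sequence-specific transcription factors, Sox, Fox, Gata, Klf, Ets, Tfap2 and Cebp, were compared between rat endometrial epithelial organoids (rEEOs) and rat bone marrow mesenchymal stem cells (rBMSCs). Members were taken by gene symbol, leaving out Foxj1, and had to reach 3 reads in at least 1 library. This gave 67 of the 13728 genes held: 20 Fox, 15 Ets, 13 Klf, 10 Sox, 3 Gata, 3 Tfap2 and 3 Cebp genes. Another 7 genes matched by symbol but stayed below 3 reads in every library. Some family members, such as Foxo1, Cebpd, Sox18 and Tfap2b, were not among the genes held, so family counts and sums are not of whole families. The study asked whether EEOs repair injured endometrium better than BMSCs do, and sequenced RNA from 3 samples of each.

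The rEEOs were grown from uterine glandular fragments of female Sprague-Dawley rats 5 weeks old, in Matrigel droplets with an expansion medium holding insulin, EGF, FGF10, noggin, Wnt3a, R-Spondin-1, the TGF-beta receptor inhibitor A83-01 and the ROCK inhibitor Y27632. They were used at passages 3 to 5. The rBMSCs were purchased cells labeled with red fluorescent protein (RFP), grown in dishes in DMEM/F12 with fetal bovine serum. No steroid hormone is listed on its own in either medium. The expansion medium also held the supplements B27 and N2, and the contents of these and of the serum were not looked up. The media are therefore not known to be free of steroids. Tissue of origin, culture format, medium and donor animals thus differ together between the groups and cannot be told apart. Nothing in the sources says that the 3 samples of a group came from separate animals, so the p-values measure the spread between these samples, which may be technical.

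These families share conserved DNA-binding folds: the HMG box of Sox proteins, the forkhead domain of Fox proteins, zinc fingers in Gata and Klf proteins, the Ets domain, and the basic leucine zipper of Cebp proteins. Members of a family recognise similar short DNA motifs, and their effects differ largely because they are expressed in different cells. In the uterus, Foxa2 is the factor of glandular epithelium, Sox17 and Gata2 act in the epithelial response to progesterone, and Foxc, Foxf and Gata6 genes are best known from mesenchyme.

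The markers of the 2 cell types were where the labels place them. All 11 epithelial markers (such as Epcam, Krt8 and Cdh1) were called higher in rEEOs, with a summed level of 5389 to 6000 TPM compared to 2.93 to 3.57 TPM in rBMSCs, and 7 of the 11 had no count in rBMSCs. Of 11 mesenchymal markers, 10 were tested and all 10 were called lower in rEEOs, with 171 to 298 TPM compared to 41313 to 43640 TPM. Most of what rEEOs retained was Vim, with 232 TPM on average. Of the epithelial markers 2 reached 10 counts in a rBMSCs library, and of the mesenchymal markers 2 did so in a rEEOs library. The other tested markers of these lists entered the test through 1 cell type alone, so they were bound to differ. Among all genes tested, 16.3% were called higher and 13.3% lower. The rBMSCs also carried smooth muscle markers (4 of 4 tested called lower in rEEOs), at 5928 to 6719 TPM against 0.72 to 1.08 TPM. Of these only Acta2 reached 10 counts in a rEEOs library, so the others were bound to differ. The bone genes Bglap, Ibsp and Dmp1 had at most 6 counts in any library. Alpl, also a marker of bone-forming cells, had 22.8 TPM on average in rBMSCs and 27 TPM in rEEOs. Libraries held 10457958 to 15421501 reads. The rEEOs replicates differed more from each other than the rBMSCs replicates did: over the members tested, the median SD of log2(CPM + 1) was 0.437 in rEEOs, 0.181 in rEEOs without replicate 1, and 0.097 in rBMSCs. Because these are bulk samples, fewer cells of a type and less RNA per cell cannot be told apart.

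Of the 67 members, 57 had at least 10 counts in at least 3 libraries and were tested. A call needed a log2 fold change (rEEOs over rBMSCs, log2FC) beyond 2 in either direction and an adjusted p under 0.05 (edgeR's quasi-likelihood test, Benjamini-Hochberg adjustment over 10607 genes). By this rule 13 members were higher and 14 lower in rEEOs, and 30 were not called; among all genes tested, 16.3% were called higher and 13.3% lower, 29.7% together. At an adjusted p below 0.05 with no fold threshold, 16 members were higher and 25 lower, where 33.3% and 30.2% of all genes were, 63.4% together. By family, 3 Sox genes were called higher and 3 lower, 1 Fox gene higher and 8 lower, 4 Klf genes higher and 1 lower, 4 Ets genes higher and 1 lower, 1 Gata gene lower and 1 Cebp gene higher. The median log2FC of the members was -0.69, against 0.08 for all genes tested. The 3 libraries of rEEOs lay above all rBMSCs libraries for 18 members and below them for 30, with 9 overlapping; the same was seen for 36.9% and 35.9% of all genes, 72.8% together. Of the tested members, 7 had 10 counts in rEEOs libraries alone and 9 in rBMSCs libraries alone. The former were Elf3, Ehf, Elf5, Sox17, Sox7, Sox13 and Klf1. The latter were Erg, Foxs1, Foxc1, Foxc2, Foxd2, Foxf2, Gata3, Gata6 and Sox6. These 16 entered the test through the cell type in which they are high, so they were bound to differ. Adjusted p-values printed for them below are therefore no separate support for a difference.

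The calls fell unevenly when members were grouped by the setting in which each is best known. Of the 17 factors known from epithelia, 11 were tested, 7 were called higher and 0 lower, with a median log2FC of 2.67. At an adjusted p below 0.05 with no fold threshold, 9 were higher and 2, Gata3 and Klf3, were lower. Of all genes tested, 33.3% and 30.2% were. Of those known from mesenchyme and skeleton, 13 were tested, 0 were called higher and 10 lower, with a median of -6.08. Of 12 endothelial and blood factors, 3 were called higher and 2 lower. Of 19 factors of growth and stress responses, 2 were called higher and 2 lower, with a median of -0.34. The 2 tested factors known from neural or germ line tissue were Sox13, called higher, and Foxp4, not called. Among all genes tested, 16.3% were called higher and 13.3% lower. Of the epithelial factors called higher, Elf3, Ehf, Elf5 and Sox17 had 10 counts in rEEOs libraries alone. Of the mesenchymal and skeletal factors called lower, Foxc1, Foxc2, Foxd2, Foxf2, Foxs1, Gata6 and Sox6 had 10 counts in rBMSCs libraries alone. The filter bound these genes to differ. The groups were drawn up with earlier results of these data known, so these counts describe the lists and were not tested. Several factors serve more than 1 setting: Sox9 also drives cartilage formation and Gata2 also acts in blood and endothelium.

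**Figure D1:**
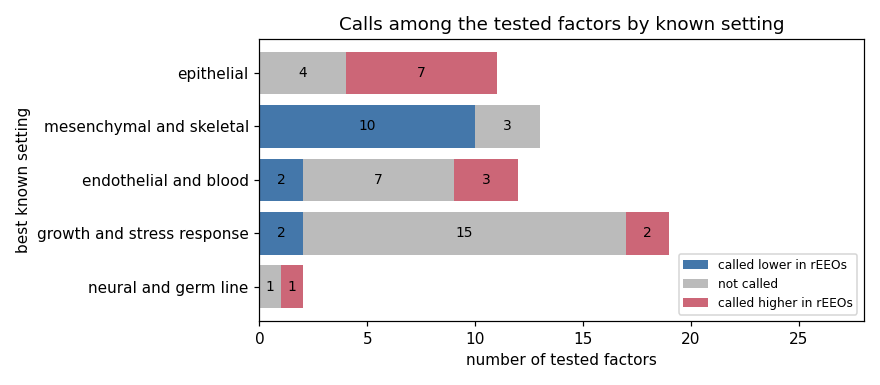
Number of tested factors called lower, not called or called higher in rEEOs compared to rBMSCs (x axis), for the 5 groups of factors by best known setting (y axis). Of the epithelial factors 7 were called higher and 0 lower, and of the mesenchymal and skeletal factors 10 were called lower and 0 higher. The epithelial factors Gata3 and Klf3 were lower in rEEOs under the fold threshold. Many of these calls were of members with 10 counts in a single cell type, which were bound to differ.

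The epithelial Ets factors Elf3, Ehf and Elf5 were all called higher. Elf3, an epithelium-restricted Ets factor of simple and glandular epithelia, had 338.3, 227.77 and 464.85 TPM across rEEOs replicates 1 to 3 and no read in rBMSCs. It was at least 2433-fold higher in rEEOs (adjusted p = 0.000124) and was the most abundant of the 67 factors there, at 344 ± 119 TPM (SD, n = 3). Ehf, a close relative also confined to epithelia, had 238.44, 45.76 and 82.53 TPM in rEEOs and 0, 0 and 3 counts in rBMSCs. Its ratio to rBMSCs was 5195, with a 95% counting interval of 1777 to 25193 (adjusted p = 7.32e-05). All rEEOs libraries of both genes were far above rBMSCs, but the highest rEEOs library had 3.0 times the Ehf level (CPM) of the lowest. Elf5, a factor of mammary and trophoblast epithelium, was much scarcer, at 1.14, 1.43 and 5.11 TPM in rEEOs with no read in rBMSCs, at least 19.3-fold higher (adjusted p = 0.00803). Spdef, a factor of goblet and other secretory cells, had 40, 2 and 10 counts in the rEEOs libraries and 2, 2 and 4 in those of rBMSCs, and was not tested; replicate 2 lay within the rBMSCs range.

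Among Klf factors, the pair best known from epithelia was called higher. Klf5, which promotes proliferation of basal and crypt epithelial cells, had 75.08, 45.36 and 54.85 TPM in rEEOs and 11.67, 10.08 and 10.4 TPM in rBMSCs. Its log2FC was 2.67 (standard error 0.13, adjusted p = 1.71e-05), and leaving out single libraries moved it between 2.64 and 2.76. Klf4, which promotes epithelial differentiation and is also a pluripotency factor, had 104.88, 115.49 and 136.33 TPM against 36.15, 32.89 and 33.35 TPM. The groups did not overlap for either gene. The log2FC of Klf4 was 2.09 (standard error 0.23, adjusted p = 0.000406), close to the threshold of 2; it was 1.92 without rEEOs replicate 3 and 1.76 with limma on log2(TPM + 1). Klf3, a repressor also active in epidermis, was lower in rEEOs at a smaller fold, with 17.5 ± 10.4 TPM against 34.1 ± 2.00 TPM and a log2FC of -0.80 (adjusted p = 0.0342). Its adjusted p was between 0.0792 and 0.11 without any 1 of the libraries other than rEEOs replicate 1, and 0.249 with library size scaling alone (log2FC -0.41). With rEEOs replicate 1 left out it was 9.09e-05 (log2FC -1.13).

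The Fox factors of epithelium were fewer and scarcer. Foxq1, expressed in several glandular epithelia, was the 1 tested Fox gene called higher, with 12.84, 6.62 and 7.68 TPM in rEEOs and 0.64, 0.49 and 0.66 TPM in rBMSCs (log2FC 4.12, standard error 0.25, adjusted p = 3.27e-05). Foxa2, which is needed for uterine gland formation, had 11.08, 0.09 and 3.46 TPM across rEEOs replicates 1 to 3 and no read in rBMSCs. Replicate 2 thus held 2 reads of a gland factor that replicate 1 held at 254 reads, and the gene did not meet the count filter. When the filter was lowered to a single count in any library, its adjusted p was 0.0281, and 15.8% of the genes in that fit were called higher. Foxa2 passed that filter through rEEOs alone, so this value is no separate support for a difference. Foxa1, a forkhead pioneer factor of hormone-responsive epithelia, had 15, 3 and 5 counts in rEEOs with none in rBMSCs. Foxn1, the factor of thymic and hair follicle epithelium, had 8, 9 and 12 counts in rBMSCs and 2, 2 and 1 in rEEOs, the opposite direction from Foxq1, Foxa1 and Foxa2.

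Sox17, a SoxF gene of endoderm, endothelium and uterine epithelium, had 16.87, 7.41 and 16.62 TPM in rEEOs and no read in rBMSCs, at least 147-fold higher (adjusted p = 0.000279). Sox7, also a SoxF gene and known mainly from endothelium and endoderm, was present at 55.66, 20.59 and 16.88 TPM in rEEOs and at 0.03, 0.03 and 0.06 TPM in rBMSCs. Its log2FC was 9.57 (standard error 0.58, adjusted p = 3.41e-05). In rEEOs it was the most abundant Sox gene, at 31.0 ± 21.4 TPM compared to 13.6 ± 5.39 TPM for Sox17. Sox13, a SoxD gene, had 22.27, 14.58 and 10.61 TPM in rEEOs and a total of 3 counts in rBMSCs, a ratio of 632 with a 95% counting interval of 216 to 3067 (adjusted p = 2.45e-05). The other SoxD genes, Sox5 and Sox6, which act with Sox9 in cartilage, went the opposite way. Sox5 had 3.59, 2.68 and 3.33 TPM in rBMSCs and 0.24, 0 and 0.06 TPM in rEEOs, a log2FC of -5.13 (standard error 0.72, adjusted p = 0.00111). Sox6 had 26, 28 and 39 counts in rBMSCs and 1 count in rEEOs in all, a ratio of 93.2 with a 95% counting interval of 16.3 to 3721.

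Sox9, a progenitor factor of many glands and the driver of cartilage formation, was detected in both cell types, and its lowest rEEOs library (4.64 TPM) lay above its highest rBMSCs library (3.65 TPM). With all libraries its log2FC was 1.48 (adjusted p = 0.00457), higher in rEEOs but below the fold threshold. Without rEEOs replicate 1 the log2FC was 1.19 (adjusted p = 0.00123). Of 11 cartilage genes controlled by Sox9, 7 were held and 5 tested; 0 were called higher in rEEOs and 4 lower, with a median log2FC of -4.21. Acan, the main cartilage proteoglycan, had 477 TPM on average in rBMSCs and at most 3 counts in a rEEOs library, while Col2a1 had at most 3 counts in any library. Among the SoxC genes, which act in mesenchymal and neural progenitors, Sox12 was called lower in rEEOs (47.77, 41.62 and 46.33 TPM against 8.99, 7.67 and 4.52 TPM, log2FC -2.42, adjusted p = 0.000286). Sox4 was lower at a smaller fold, with 15.3 ± 3.05 TPM in rEEOs against 37.0 ± 3.40 TPM (log2FC -1.01, adjusted p = 0.00705). Sox11 overlapped between the groups: it had 9, 50 and 42 counts in the rEEOs libraries and 31, 25 and 22 in those of rBMSCs (log2FC 0.50, adjusted p = 0.545). Sox8 had at most 6 counts in any library and was not tested.

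The Gata genes diverged within the family. Gata2 was detected in both cell types and was higher in rEEOs at a log2FC of 1.11 (standard error 0.16, adjusted p = 0.0011), with 20.65, 12.57 and 13.13 TPM against 7.6, 9.13 and 8.6 TPM. Gata6, a factor of mesoderm and endoderm, had 6.75, 7.18 and 7.65 TPM in rBMSCs and 0.03, 0.06 and 0.03 TPM in rEEOs. Its log2FC was -7.19 (standard error 0.36, adjusted p = 1.87e-05), and its counts in rBMSCs were partly fractional, so some reads may have been shared with another gene. Gata3, known from breast, urothelium and T cells, was scarce in both and lower in rEEOs, with 7, 9 and 7 counts against 26, 29 and 24 (log2FC -1.73, adjusted p = 0.00423). Of 8 Gata and Ets cofactors, 6 were held and 5 tested, with 1 called higher and 1 lower. Zfpm2, the cofactor of Gata4 and Gata6 in heart and gonad, had the same direction as Gata6, with 608, 583 and 578 counts in rBMSCs with none in rEEOs. Lmo2, a bridging protein of Gata and basic helix-loop-helix complexes, had 126, 154 and 85 counts in the rEEOs libraries and 0, 0 and 1 in those of rBMSCs.

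Sox17 and Gata2 act in the mouse uterus upstream of Ihh, the hedgehog ligand by which epithelium signals to stroma. Of 9 genes of this axis, 7 were held and 6 tested, with 1 called higher and 1 lower. Ihh itself had 1, 0 and 4 counts in rEEOs with none in rBMSCs, while the lowest rEEOs library held 7.41 TPM of Sox17 and 12.57 TPM of Gata2. The stromal progesterone effector Hand2 had 27, 27 and 24 counts in rBMSCs with none in rEEOs. Wnt4 was the gene called higher, with 30, 36 and 91 counts in rEEOs with none in rBMSCs. Lif, a gland product that depends on Foxa2 in the mouse, had 504, 56 and 179 counts in rEEOs and 333 to 424 in rBMSCs (log2FC -0.73, adjusted p = 0.308).

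**Figure D2:**
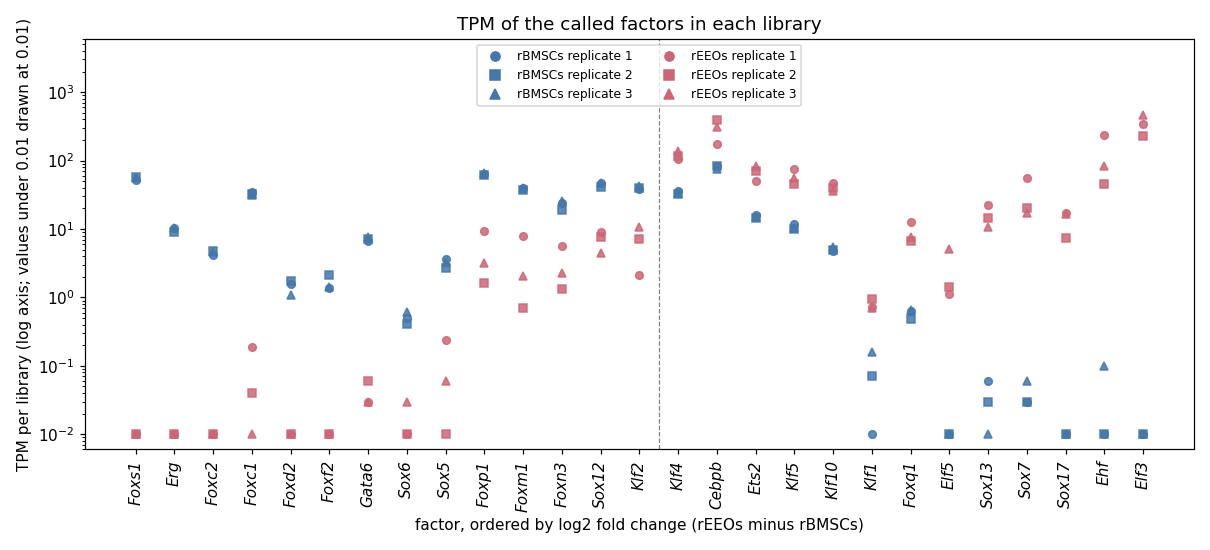
TPM of the 27 called factors in each of the 6 libraries (y axis, log scale), ordered by log2FC on the x axis, with blue symbols for rBMSCs and red symbols for rEEOs; the dashed line separates the 14 factors lower from the 13 higher in rEEOs. Values under 0.01 TPM are drawn at 0.01. Elf3, Sox17 and Elf5 had no read in rBMSCs, and Foxs1, Erg, Foxc2, Foxd2 and Foxf2 had none in rEEOs.

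Fox genes known from mesenchyme made up 6 of the 14 members called lower: Foxs1, Foxc1, Foxc2, Foxd2, Foxf2 and Foxp1. Foxs1, a forkhead gene of pericytes and perivascular cells, had 51.46, 58.35 and 55.81 TPM in rBMSCs and no read in rEEOs, at least 164-fold lower (adjusted p = 4.08e-05). Foxc1, a factor of mesoderm and of the bone marrow niche, had 34.75, 32.11 and 31.85 TPM in rBMSCs and 9, 2 and 0 counts in rEEOs (log2FC -8.48, standard error 0.60, adjusted p = 6.16e-05). Its close relative Foxc2 had 4.18, 4.84 and 4.68 TPM in rBMSCs and no read in rEEOs, at least 34.0-fold lower (adjusted p = 0.000187). Every rBMSCs library of these genes held over 100 reads. Foxd2 and Foxf2, a factor downstream of hedgehog signals in mesenchyme, had 30 to 58 counts in rBMSCs with none in rEEOs, and each was at least 12.3-fold lower (adjusted p = 0.000767 and 0.000789). Foxf1 and Foxl1, also mesenchymal targets of hedgehog signals, had 4 to 12 counts in rBMSCs with none in rEEOs, too few to be tested. Under the filter of a single count in any library their adjusted p-values were 0.0119 and 0.00508, and 11.5% of the genes in that fit were called lower. Both genes passed that filter through rBMSCs alone, so these values are no separate support for a difference.

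Foxp1, a repressor in many mesenchymal and immune cells, was the most abundant Fox gene of rBMSCs, at 64.24, 60.69 and 65.9 TPM. It had 9.22, 1.6 and 3.22 TPM in rEEOs, a log2FC of -3.51 (standard error 0.53, adjusted p = 0.0015). Its relative Foxp4 did not pass the test, with 45.44, 22.23 and 20.77 TPM in rEEOs against 32.26, 28.66 and 31.9 TPM (log2FC 0.12, adjusted p = 0.618), and its counts were fractional. Klf15, which controls metabolism in muscle and fat, had 6.5, 3.65 and 7.66 TPM in rEEOs and 13.77, 11.97 and 10.28 TPM in rBMSCs (log2FC -0.77, adjusted p = 0.0553). Its rEEOs libraries were all below its rBMSCs libraries.

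Of the endothelial and blood factors, Erg separated the cell types fully. Erg, the Ets factor of endothelium and cartilage, had 10.44, 8.98 and 10.44 TPM in rBMSCs and no read in rEEOs, at least 70.6-fold lower (adjusted p = 8.71e-05). Fli1, its closest relative, had 0, 0 and 2 counts in rBMSCs with none in rEEOs. Of 10 endothelial markers, 6 were held; Pecam1 and Cdh5 had at most 3 counts in any library, and the summed level was 11.3 to 12.9 TPM in rBMSCs and 6.63 to 7.44 TPM in rEEOs, nearly all of it Egfl7. Of the 2 endothelial markers tested, 0 were called higher and 1, Tek, was called lower in rEEOs. Of 10 haematopoietic markers, 6 were held and 1 tested: Rac2 had 191, 26 and 15 counts in rEEOs with none in rBMSCs, while the others had at most 5 counts in any library. Sox7, Sox17, Erg and Klf1 were thus read in libraries with at most 3 counts each of Pecam1, Cdh5 and the myeloid factor Spi1; Tek reached 23 counts and Vwf 11 counts in rBMSCs, and Tie1 7 counts in rEEOs.

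Promoter sequences were looked up for the members in RefSeq (GRCr8), and 44 of the 67 had an entry. The 250 bases before the transcription start are shown for the 2 tested members with the highest and the 2 with the lowest log2FC among them, to set side by side the start regions of factors read almost only in 1 cell type. They lie at chr13:49247087-49247336 (Elf3), chr13:47427573-47427822 (Sox13), chr11:48251567-48251816 (Erg) and chr17:32844101-32844350 (Foxc1), each on the minus strand. The Erg window lies wholly inside the annotated gene, and 16 bases of the Elf3 window lie inside that gene. Capitals mark the Ets core GGAA on either strand (GGAA or TTCC).
Elf3: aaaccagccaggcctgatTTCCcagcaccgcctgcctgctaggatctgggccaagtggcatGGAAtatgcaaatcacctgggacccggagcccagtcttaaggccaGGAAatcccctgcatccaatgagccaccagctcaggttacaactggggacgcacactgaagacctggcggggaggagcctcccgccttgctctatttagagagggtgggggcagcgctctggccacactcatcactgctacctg
Sox13: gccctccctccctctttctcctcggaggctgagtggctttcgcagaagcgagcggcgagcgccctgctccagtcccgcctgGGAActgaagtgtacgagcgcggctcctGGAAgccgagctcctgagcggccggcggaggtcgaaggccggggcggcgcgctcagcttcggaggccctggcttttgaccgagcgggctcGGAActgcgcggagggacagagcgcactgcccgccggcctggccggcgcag
Erg: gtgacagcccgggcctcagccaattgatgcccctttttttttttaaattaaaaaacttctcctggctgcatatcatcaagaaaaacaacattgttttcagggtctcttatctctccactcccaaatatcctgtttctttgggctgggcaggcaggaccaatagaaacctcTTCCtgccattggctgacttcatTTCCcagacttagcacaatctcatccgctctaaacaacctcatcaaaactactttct
Foxc1: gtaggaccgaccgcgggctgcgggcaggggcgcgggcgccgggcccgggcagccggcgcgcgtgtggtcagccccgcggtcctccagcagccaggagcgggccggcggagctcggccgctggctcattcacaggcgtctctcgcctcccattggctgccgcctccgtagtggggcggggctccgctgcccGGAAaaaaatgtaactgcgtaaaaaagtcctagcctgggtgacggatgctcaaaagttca

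The Ets core was found 3 times before Elf3, 3 times before Sox13, 2 times before Erg and 1 time before Foxc1. It is short and common: 93.2% of all 33469 promoters of this length hold it, as do 84.1% of the 44 member promoters. The Klf-type core CACCC was present in 59.1% of member promoters and 49.2% of all, GATAA in 22.7% and 23.5%, TGTTTA of forkhead proteins in 6.82% and 12.1%, and ACAAT of Sox proteins in 20.5% and 30.0%, each on both strands. CCAAT was present in 40.9% and 34.0%, and TATAAA in 11.4% and 12.9%. Member promoters were richer in CpG dinucleotides, with a median of 17 in 250 bases against 5 over all promoters. The sets are unlike: members had 1 promoter per gene, while all 33469 entries were kept, whether or not the gene was read here. Whether other expressed genes have similar values was not tested. The 8 promoters of members called higher had a median of 21 and the 9 of members called lower a median of 19. Elf3 had 6 and Erg 2, whereas Sox13 had 30 and Foxc1 29, so promoters of both kinds stood on both sides of the comparison. Such matches describe the sequence and do not show a bound site.

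Ets2, a growth factor-responsive Ets factor, had 50.56, 69.71 and 84.2 TPM in rEEOs and 15.81, 14.68 and 14.77 TPM in rBMSCs, a log2FC of 2.48 (standard error 0.31, adjusted p = 0.00071). Ets1, the other founding member, went the opposite way, with 13.52, 5.04 and 6.45 TPM against 23.31, 21.21 and 24.34 TPM (log2FC -1.29, standard error 0.24, adjusted p = 0.00407). The groups did not overlap for either gene. Elk3, Etv6, Elf4 and Elf2 were lower in rEEOs by the same test without the fold threshold, with log2FCs of -1.06, -1.08, -1.26 and -0.69. Elf1 was higher, with a log2FC of 1.00 (adjusted p = 0.000679). Without rEEOs replicate 1 the values of Elk3, Etv6 and Elf4 were -1.45, -1.61 and -1.79, with adjusted p of 9.92e-05, 0.000105 and 0.000679. That library held 2.40 times the Elf4 and 2.38 times the Etv6 level (CPM) of the mean of the others. With replicate 1 kept, these 3 differences were weakly held. Without any 1 of the other libraries the adjusted p rose to between 0.0856 and 0.122 for Etv6 and between 0.0554 and 0.11 for Elf4. For Elk3 it lay between 0.0448 and 0.0667, and with library size scaling alone it was 0.113 for Elk3, 0.174 for Etv6 and 0.124 for Elf4.

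Klf2, which is induced by blood flow in endothelium and keeps cells quiescent, had 37.94, 39.94 and 41.83 TPM in rBMSCs and 2.11, 7.1 and 10.59 TPM in rEEOs. Its log2FC was -2.23 (standard error 0.62, adjusted p = 0.0189). It rested on rEEOs replicate 1: without that library the log2FC was -1.72 (adjusted p = 0.000268), under the threshold. Without rBMSCs replicate 2 or 3 its adjusted p was 0.0545 or 0.0526. Of 5 genes known as Klf2 targets in endothelium, 2 were held, S1pr1 and Vcam1, and both were called lower in rEEOs. Klf1, the erythroid factor, had 11, 15 and 11 counts in the rEEOs libraries and 0, 1 and 2 in those of rBMSCs, a ratio of 12.3 with a 95% counting interval of 3.90 to 62.4 (adjusted p = 0.00548), at levels below 1 TPM. Klf13 had 14.51, 11.33 and 11.71 TPM in rBMSCs and 7.73, 0.53 and 1.87 TPM in rEEOs, with a log2FC of -1.73 that did not pass (adjusted p = 0.0575), and of -2.85 without rEEOs replicate 1 (adjusted p = 0.00181).

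**Figure D3:**
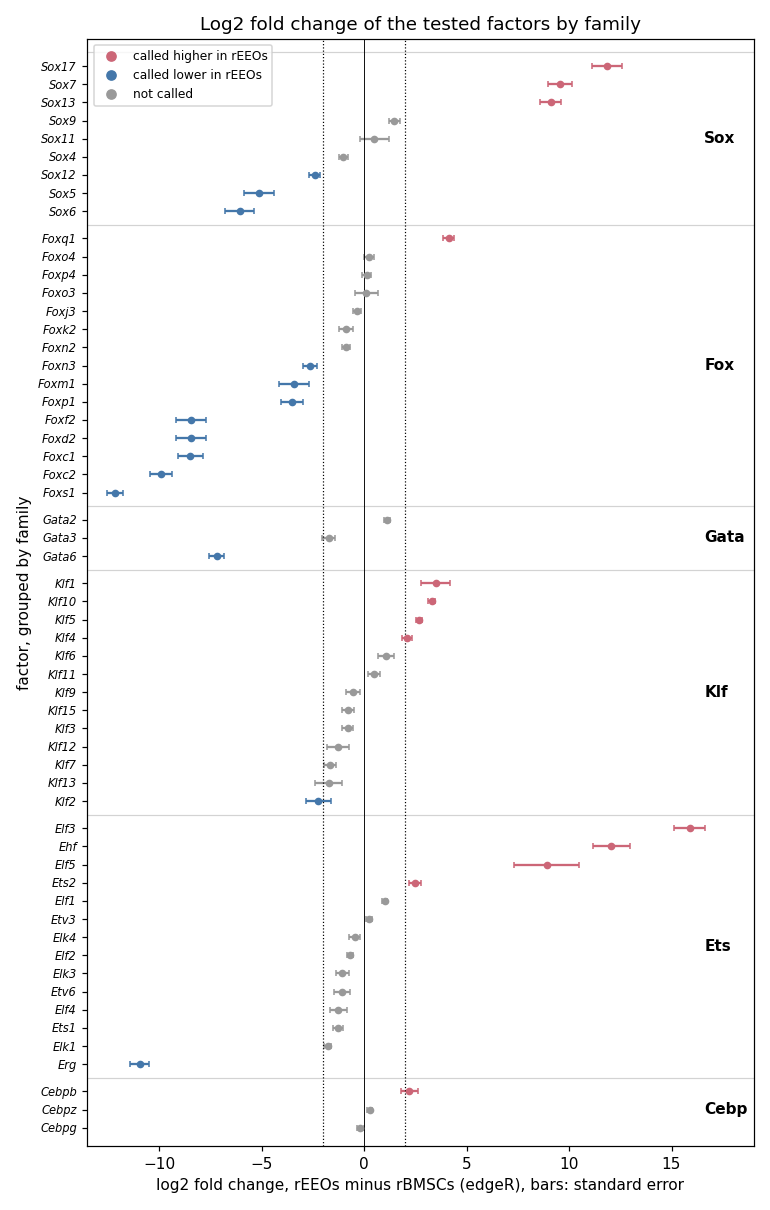
Log2 fold change of the 57 tested factors (x axis, rEEOs minus rBMSCs, points with standard errors from edgeR), grouped by family on the y axis; red points were called higher, blue points lower and grey points were not called, and the dotted lines mark the thresholds of -2 and 2. Fox genes extend to -12.16 and reach 4.12, while Ets genes span -10.95 to 15.89. For genes with no read in a cell type the plotted value depends on the fitted prior count.

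Foxm1, which switches on mitotic genes in dividing cells, had 40.17, 37.52 and 39.11 TPM in rBMSCs and 7.98, 0.71 and 2.08 TPM in rEEOs. Its log2FC was -3.41 (standard error 0.73, adjusted p = 0.00695), and it was -4.51 without rEEOs replicate 1 (adjusted p = 0.000113). Of 9 mitotic targets of Foxm1, 8 were held and tested, 0 were called higher and 3 lower, with a median log2FC of -2.04. Their summed level was 355 to 376 TPM in rBMSCs and 18.1 to 194 TPM in rEEOs. Kif20a, a kinesin of cytokinesis, had 796, 73 and 180 counts across rEEOs replicates 1 to 3, in the same order as Foxm1. Foxn3, a repressor linked to the cell cycle checkpoint, was also called lower, with 5.63, 1.34 and 2.24 TPM against 23.93, 18.69 and 25.49 TPM (log2FC -2.64, adjusted p = 0.000907).

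Foxo3 and Foxo4, the Foxo genes held, act downstream of insulin and growth factor signals and did not pass the test. Foxo1 was not among the genes held and was not tested. Foxo3 had 18.42, 2.31 and 5.65 TPM in rEEOs and 9.48, 7.11 and 9.6 TPM in rBMSCs (log2FC 0.11, adjusted p = 0.88), and rEEOs replicate 1 lay above and the others below every rBMSCs library. Without replicate 1 its log2FC was -0.70 (adjusted p = 0.113). Foxo4 had 22.65, 9.24 and 10.41 TPM against 13.01, 13.35 and 13.86 TPM (log2FC 0.22, adjusted p = 0.46, and -0.07 without rEEOs replicate 1). Of 13 genes known as Foxo targets, 10 were held and tested, 1 was called higher and 1 lower. Sod2, the mitochondrial superoxide dismutase, was the gene called higher, with a log2FC of 4.45 (adjusted p = 5.84e-06), and Sesn3 was the gene called lower, with -2.69 (adjusted p = 0.00373). Among further Fox genes, Foxn2 was lower (log2FC -0.88, adjusted p = 0.0104), while Foxk2 (-0.87, adjusted p = 0.0616) and Foxj3 (-0.34, adjusted p = 0.143) did not pass.

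Cebpb, a factor of the acute phase response and of decidualization, was the most abundant member in rBMSCs and the second most abundant in rEEOs. It had 177.37, 390.84 and 312.95 TPM across rEEOs replicates 1 to 3 and 82.78, 84.65 and 76.24 TPM in rBMSCs, a log2FC of 2.2 (standard error 0.41, adjusted p = 0.00399). It fell to 1.86 without rEEOs replicate 2 and was 2.56 without rEEOs replicate 1. Cebpg, a partner of Cebpb and of Atf4, did not pass the test on counts (log2FC -0.18, adjusted p = 0.322), and its value was 0.19 with scaling to library size only. On the TPM scale it had 49.65, 43.65 and 36.31 in rEEOs, below the 67.74 to 76.39 of rBMSCs. Cebpz, an unrelated CCAAT-binding protein of the nucleolus, had 30.45, 21.67 and 20.59 TPM in rEEOs and 24.82, 22.79 and 23.22 TPM in rBMSCs (log2FC 0.27, adjusted p = 0.0741). Of 8 genes of the fat program driven by Cebp factors and Pparg, 6 were held and 5 tested. Fabp4, Cfd and Cd36 were called higher in rEEOs, and Pparg itself and Lpl were called lower. Fabp4, a fatty acid carrier, had 31, 338 and 444 counts in rEEOs, lowest in replicate 1, where Cebpb was also lowest, whereas Cd36, a fatty acid receptor, had 149.2, 12 and 236.54 counts, lowest in replicate 2, where Cebpb was highest.

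Klf10, induced by TGF-beta in many cells, had 47.53, 40.09 and 36.02 TPM in rEEOs and 4.72, 4.88 and 5.4 TPM in rBMSCs, a log2FC of 3.29 (standard error 0.15, adjusted p = 1.42e-05). A83-01, the TGF-beta receptor inhibitor, was in the rEEOs medium, and any bearing of it on the Klf10 level was not tested. Klf11, a close relative of Klf10, did not pass (log2FC 0.48, adjusted p = 0.165). Klf6, an injury-response gene, had 66.74, 129.93 and 150.51 TPM in rEEOs and 71.12, 62.56 and 74.07 TPM in rBMSCs (log2FC 1.07, adjusted p = 0.0559). Its rEEOs replicate 1 lay inside the rBMSCs range, and without it the log2FC was 1.45 (adjusted p = 3.72e-05). Klf7 was lower in rEEOs, with 3.2, 2.05 and 1.38 TPM against 8.93, 6.01 and 9.26 TPM (log2FC -1.66, adjusted p = 0.00256). So was Elk1, a target of MAP kinases (10.03, 5.68 and 5.63 TPM against 28.08, 27.17 and 26.66 TPM, log2FC -1.77, adjusted p = 0.000201). Klf9 (-0.54, adjusted p = 0.203), Klf12 (-1.27, adjusted p = 0.0753), Elk4 (-0.46, adjusted p = 0.191) and Etv3 (0.22, adjusted p = 0.205) did not pass. Klf12 had 1.09, 2.36 and 0.62 TPM in rEEOs, and without replicate 2, its highest library, the log2FC was -2.11 (adjusted p = 0.000946).

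Tfap2 genes, factors of surface ectoderm, trophoblast and neural crest, were scarce and none was tested. Tfap2a had 53, 0 and 0 counts across rEEOs replicates 1 to 3 and 5, 9 and 6 counts in rBMSCs. Tfap2c had 3, 18 and 21 counts in rEEOs with none in rBMSCs, the opposite order among the rEEOs libraries, and Tfap2e had 3, 3 and 0 counts in rEEOs. Under the filter of a single count in any library, the adjusted p was 0.548 for Tfap2a, 0.0212 for Tfap2c and 0.115 for Tfap2e. Tfap2c and Tfap2e passed that filter through rEEOs alone, so their values are no separate support for a difference.

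Among the rEEOs libraries, basal and squamous markers were read almost only in replicate 1, where Tfap2a, Foxa2 and Spdef also had their highest counts. In replicates 2 and 3 those markers were at or near 0 in both, while Foxa2 had 2 and 79 counts and Spdef 2 and 10. Of 6 such markers, 4 were held. Krt5 had 1312, 1 and 0 counts, Krt14 had 733, 0 and 2, Krt13 had 44, 0 and 0, and Tp63 had 53, 0 and 1 across rEEOs replicates 1 to 3. In rBMSCs the keratins had no count and Tp63 had 4, 10 and 11. The summed level of the 4 genes was 0.08 TPM in the lowest and 157 TPM in the highest rEEOs library, and 0.21 to 0.26 TPM in rBMSCs; Tp63, the 1 gene of them tested, was not called (adjusted p = 0.59). The part of such cells in the levels of Tfap2a, Foxa2, Spdef, Ehf or Foxm1 was not tested. Of 6 Schwann and neural crest markers, the 2 held, Erbb3 and Mbp, were both called higher in rEEOs, and both are also expressed outside that lineage. Neither reached 10 counts in a rBMSCs library, so the filter bound both to differ. Of 6 osteogenic markers, 4 were held and 1 tested, Alpl, which was under the fold threshold and not called (log2FC 0.45, adjusted p = 0.0396).

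More members peaked in rEEOs replicate 1 than in the others. Of the 52 tested members with 1 highest rEEOs library by CPM, 29 were highest in replicate 1, 12 in replicate 2 and 11 in replicate 3, which is 55.8%, 23.1% and 21.2%; over all genes tested these shares were 42.4%, 33.9% and 23.7%. The other 5 members had no read in rEEOs. Foxm1 had 4.55 times, Foxa2 4.57 times and Foxo3 3.34 times the level in replicate 1 of the mean in replicates 2 and 3. Of the 51 members with 1 lowest rEEOs library, 15 were lowest in replicate 1, 23 in replicate 2 and 13 in replicate 3, which is 29.4%, 45.1% and 25.5%, against 42.6%, 33.8% and 23.6% of all genes tested. The mean of replicates 2 and 3 was 5.92 times the level of replicate 1 for Klf2, 2.94 times for Klf6, 2.81 times for Cebpb and 2.13 times for Ets2. With rEEOs replicate 1 left out, 13 members were called higher and 14 lower; among the latter, Klf2 was no longer called and Klf13 was added.

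**Figure D4:**
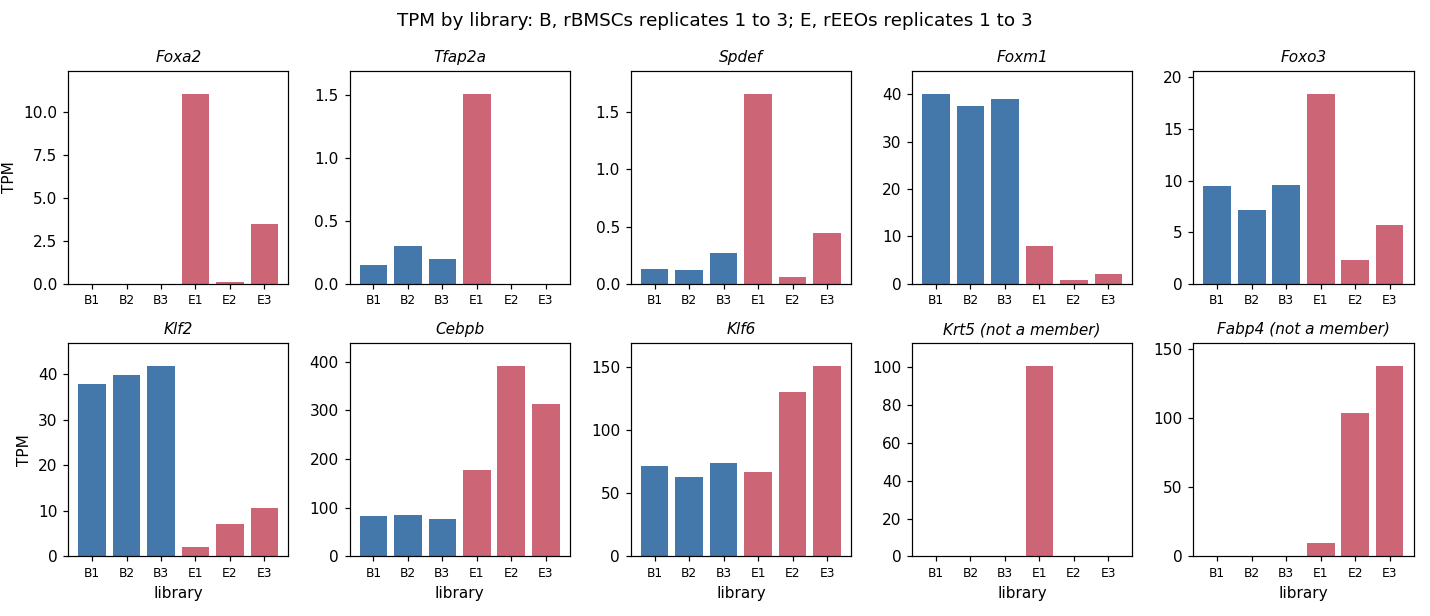
TPM in each library (y axis, from 0) for 8 factors and 2 genes that are not members, Krt5 and Fabp4, chosen after their values were seen; B1 to B3 are rBMSCs and E1 to E3 rEEOs replicates. Foxa2, Tfap2a, Spdef, Foxm1, Foxo3 and Krt5 were highest among rEEOs in replicate 1, whereas Klf2, Cebpb, Klf6 and Fabp4 were lowest there.

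Taking the summed level of each family, the balance between families differed as well. Fox genes together had 369, 343 and 374 TPM in rBMSCs and 207, 72.0 and 91.7 TPM in rEEOs. Ets genes had 247, 222 and 250 TPM in rBMSCs and 841, 443 and 737 TPM in rEEOs. Klf genes had 245 ± 14.1 TPM in rBMSCs and 384 ± 34.1 TPM in rEEOs, and Cebp genes 176 ± 7.75 TPM and 361 ± 99.6 TPM (SD, n = 3). The groups did not overlap for these 4 families, for which a two-sided exact permutation test of 3 against 3 cannot give less than p = 0.1. The Ets and Cebp sums in rEEOs came mostly from a few genes: Elf3 (344 TPM on average), Ehf (122 TPM) and Cebpb (294 TPM). At an adjusted p below 0.05 with no fold threshold, 5 Ets genes were higher and 7 lower in rEEOs. Sox genes had nearly the same sum in both, 90.6 ± 7.31 TPM in rBMSCs and 92.2 ± 34.3 TPM in rEEOs, with different members behind it: Sox12 and Sox4 led in rBMSCs, and Sox7, Sox13 and Sox4 led in rEEOs.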

How the data were processed

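RNA of 3 rEEOs and 3 rBMSCs samples was sequenced as single-end reads on a BGISEQ platform. Per the submitters' processing notes and the paper's methods, the authors trimmed reads with Trim Galore, aligned them with Bowtie2 2.2.5 to the rat genome (Rnor_6.0) and estimated expression with RSEM. Every library has 3 deposited columns made by the authors: the expected count, with 7.3% to 8.4% of values not whole, the TPM and the FPKM, which was not used. The authors tested genes with DESeq2; their columns of group means were not used. RSEM shares reads between similar genes, which left fractional counts for Foxp4 and Gata6 among the members. The copy analysed here holds 13728 genes, with 81.3% to 82.7% of the TPM of a library; genes outside it were not analysed here. Library totals were 10457958 to 15421501 reads.

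Expected counts were rounded, and the 10607 genes that reached 10 counts in 3 or more libraries were tested with edgeR 4.0.16 (TMM factors, estimateDisp, glmQLFit, glmQLFTest) in R 4.3.3, with cell type as the term and Benjamini-Hochberg adjustment over all of them. All adjusted p-values given are from this test unless another is named. The standard error is the size of the log2FC divided by the square root of F. Where a cell type had no read, a fold is a lower bound against 3 counts in each library (0.181 to 0.262 CPM); where it had 1 to 3 counts in all, the ratio is given with an exact 95% interval. Bounds and intervals cover counting error only. Replicates of a group differed beyond sampling noise (chi-square per degree of freedom 3.09 or more). The test was checked on simulated counts with known changes. These had the same dispersion of a gene in both cell types, so the wider spread of rEEOs was not covered. DESeq2 1.42.0, limma 3.58.1 and other settings were alternatives. Members, settings, gene lists and tests were chosen with earlier results of these data known. Per-library values are given for the 3 tested members of each family with the highest and the 3 with the lowest log2FC and for the most abundant; those of further members were chosen after their values were seen. Python 3.11.15, pandas 2.3.3 and matplotlib 3.10.9 were used.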

Additional observations from a re-analysis of the deposited data

How the results depend on the processing

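Of the 27 called members, 20 kept their call in every alternative that tested them and 24 when single libraries were omitted; the exceptions were Cebpb, Klf4 and Klf2 for the left-out libraries, and also Elf5, Foxd2, Foxf2 and Sox5 for limma on log2(TPM + 1), whose pseudocount shrinks the folds of low genes. With each library left out, 12 to 13 members were called higher and 13 to 15 lower. An absolute log2FC above 1 gave 22 members lower, and no fold threshold gave 25, against 14. DESeq2 (Wald test, all genes with a count) called 16 higher and 17 lower, and limma on log2(TPM + 1) called 9 and 10. Scaling to library size only moved the median log2FC of all genes from 0.08 to 0.46, and limma on TPM moved it to -0.22 and -0.24.

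Among members lower at an adjusted p below 0.05 but under the fold threshold, Elf2 (0.07) and Foxn2 (0.0976) also missed it with library size only. With rEEOs replicate 1 left out, Foxk2 (-1.34, adjusted p = 0.000131), Elk4 (-0.82, 0.00105) and Klf9 (-0.96, 0.00304) came below 0.05. So did Klf11 (0.74, 0.00232) and Sox11 (1.03, 0.0122), all still under the fold threshold. Some uncalled members changed direction, and the cause was not tested. Cebpg was 0.19 and Foxj3 0.04 with library size only. With limma on log2(TPM + 1) and log2(TPM + 0.1), Etv3 was -0.05 and -0.06, Foxo3 -0.36 and -0.46, Foxo4 -0.04 and -0.05, Foxp4 -0.16 and -0.16, and Sox11 -0.0044 and -0.14. With each library left out, Foxo3 lay between -0.70 and 0.55, Foxo4 between -0.07 and 0.40, and Foxp4 between -0.09 and 0.25.

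A replicate block gave 13 members higher and 15 lower, with Klf13 added (-2.06) and Foxo3 at -0.21. Samples with the same number did not deviate together throughout (correlations of 0.17, 0.193 and -0.175 for numbers 1, 2 and 3). Those of different numbers ranged from -0.292 to 0.256. Deviations from the mean of 3 libraries constrain each other, so these values do not decide on pairing. A shared batch was not tested. At these depths, members below about 10 counts, such as Sox8 (adjusted p = 0.239 under the filter of a single count) and Tfap2e (0.115), stay undecided.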

Other observations

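The 7 factors matched by symbol but below 3 reads in every library were Etv2, Sox15, Sox2, Foxh1, Fli1, Gata1 and Gata5. Sox2 had 2, 1 and 1 counts in rBMSCs with none in rEEOs, and Foxh1 had 2, 1 and 2 counts in the rEEOs libraries and 0, 1 and 0 in those of rBMSCs. Just inside the limit, Tfap2e reached 3 counts and Sox8 reached 6.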
